A study of Mus musculus with 8 samples.

Results

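The Slc25a genes encode the mitochondrial solute carriers, and 46 of them were measured among 19938 genes in epithelial cells of the fetal mouse lung with and without the Hippo kinases Mst1 and Mst2. Members were taken from the table of values by symbol alone: a probe set had to carry exactly 1 gene symbol, and that symbol had to be Slc25a followed by a number. Where a gene had more of them, as 3 did, the 1 that was brightest on average across all 8 arrays stood for it. The rule reads only symbols and mean levels, no filter on low values was applied, and all 46 members were tested.

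RNA came from cells pulled out of dissociated E18.5 lungs with beads against the epithelial surface protein Epcam, 1 biotin-labelled array per sample. There were 4 control arrays and 4 knockout arrays. The knockout animals lack both kinases, whose genes are Stk4 and Stk3, in cells where Cre expressed from the Shh locus had acted, which the design text places in epithelial progenitors of the lung, and the labels call them Mst1/2 CKO. The labels do not say which alleles the controls carried. Each array is labelled a biological replicate, but whether it stands for 1 embryo is not stated, so p-values measure the spread between these samples. Levels are log2 expression, and each difference is knockout minus control on that scale, with limma's moderated standard error (SE), from n = 4 arrays in either group. A gene is said to rise or fall where limma's p-value was under 0.05 after Benjamini-Hochberg adjustment across the 19938 genes.

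Carriers of this family sit in the inner membrane of mitochondria, apart from a few in peroxisomes or the outer membrane, and exchange metabolites, nucleotides, cofactors and inorganic ions between the cytosol and the mitochondrial matrix. They return ATP to the cytosol, take in phosphate, move reducing equivalents through the malate-aspartate shuttle and export citrate, from which the cytosol makes acetyl-CoA for fatty acid synthesis. Alveolar type 2 cells, which make surfactant lipids before birth, draw on that citrate and are known for their many mitochondria.

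The arrays stood in nearly the same distribution, with medians from 7.21 to 7.30. The largest gap between an array and the mean of all arrays at the same rank was 0.175. Stk4 fell by 0.30 (SE 0.0764, adjusted p = 0.0188 in limma). Stk3 was not analysed here. The 10 general epithelial genes, of which 2 rose and 1 fell, averaged 11.26 to 11.46 in control and 11.34 to 11.46 in knockout arrays. The mean of 12 mesenchymal markers, of which 2 rose, ran from 7.74 to 8.16 in control and from 7.96 to 8.46 in knockout arrays, that of 9 endothelial markers, of which 5 rose, from 9.24 to 9.58 and from 9.63 to 9.72, that of 9 leukocyte markers, of which 1 rose, from 8.81 to 9.84 and from 9.30 to 9.66, and that of 5 mesothelial markers, of which 2 rose, from 8.62 to 9.19 and from 9.16 to 9.69. The 7 measured erythroid markers, none of which passed, averaged 6.26 to 6.34 and 6.24 to 6.50. Whether single markers were above background is not known.

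Most carriers that changed were lower in the knockout cells. Of the 46 members 3 rose, 11 fell and 32 did not pass. Over all genes 18.8% were called, 8.6% as risen and 10.2% as fallen, against 6.52% and 23.9% of the members. The median difference was −0.10 over the members and −0.02 over all genes, and 33 members had a negative difference. Knockout and control arrays were fully apart in 3 members with the knockout above and in 14 with the knockout below. Over all genes 22.1% were apart in this way, 10.2% above and 11.9% below. The changes were moderate: the largest fall was that of Slc25a35, 1.94-fold, and the largest rise that of Slc25a24, 1.56-fold. In these bulk samples fewer cells of a type and less RNA per cell cannot be told apart. Type 2 markers moved with the group, 10 of 12 having fallen (array means 12.19 to 12.34 in control and 11.09 to 11.59 in knockout), as did type 1 markers, 8 of 10 having risen (11.23 to 11.37 against 11.79 to 11.97), ciliated and club cell markers, 6 of 9 having fallen (9.14 to 9.44 against 8.64 to 8.95), and mitosis genes, 11 of 11 having risen (7.95 to 8.09 against 8.58 to 8.87). The part of these shifts in the carriers' differences was not tested.

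**Figure D1:**
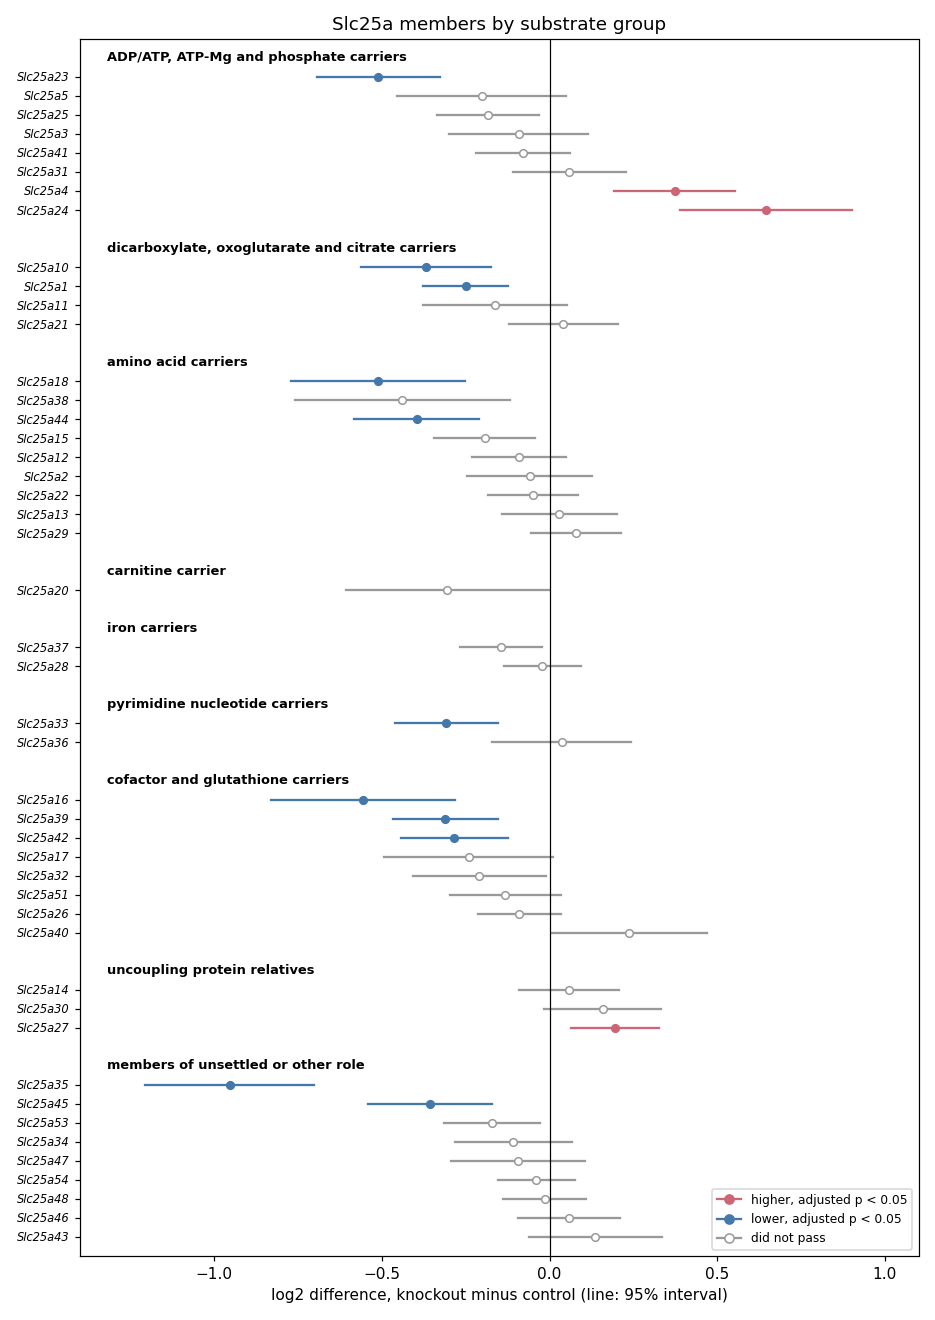
Log2 difference, knockout minus control, of each of the 46 Slc25a members (vertical axis, grouped by substrate), with its 95% interval as a line and n = 4 arrays per group. Filled red points rose, filled blue points fell and open grey points did not pass; the filled points are 3 to the right of 0 and 11 to the left.

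With the mean of the mesenchymal markers as a covariate, 3 members rose and 3 fell. That is 13% of members called, against 11% of all genes, so the family was near the share over all genes. Rises made up 50% of the called members and 44.9% of all called genes. The calls of Slc25a4, Slc25a24, Slc25a18, Slc25a23 and Slc25a35 were kept, and those of the 9 other members ended, while Slc25a40 rose by 0.41 (adjusted p = 0.0324 in limma). That covariate also lowered the calls over all genes, from 1715 to 985 risen and from 2031 to 1207 fallen.

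The bases in front of the start sites are shown for the largest called rises and falls among carriers that met a condition. The condition was a RefSeq promoter entry with enough bases outside the gene itself. Slc25a35 and Slc25a18, which fell by 0.95 and 0.51, did not meet it and are not shown. Sequences are from RefSeq, build GRCm38.p6, on the gene's own strand, and end at the annotated start or at the edge of the gene. Capitals mark matches to GGAATG or its complement, the core letters bound by Tead factors, the DNA-binding partners of Yap, and to CCGGAAG or its complement, letters bound by the ETS factor Gabpa, a regulator of mitochondrial genes.
Slc25a24, rose, chr3:109122899-109123148, plus strand: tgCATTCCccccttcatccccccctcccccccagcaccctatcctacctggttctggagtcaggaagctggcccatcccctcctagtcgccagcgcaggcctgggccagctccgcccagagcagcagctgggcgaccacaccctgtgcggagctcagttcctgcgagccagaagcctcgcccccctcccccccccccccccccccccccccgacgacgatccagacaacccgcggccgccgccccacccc
Slc25a4, rose, chr8:46211063-46211312, minus strand: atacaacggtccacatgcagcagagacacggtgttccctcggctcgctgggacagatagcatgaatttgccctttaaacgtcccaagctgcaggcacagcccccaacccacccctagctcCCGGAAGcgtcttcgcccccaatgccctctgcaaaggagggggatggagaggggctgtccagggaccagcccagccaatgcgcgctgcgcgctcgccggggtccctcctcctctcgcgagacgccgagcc
Slc25a16, fell, chr10:62920383-62920631, plus strand: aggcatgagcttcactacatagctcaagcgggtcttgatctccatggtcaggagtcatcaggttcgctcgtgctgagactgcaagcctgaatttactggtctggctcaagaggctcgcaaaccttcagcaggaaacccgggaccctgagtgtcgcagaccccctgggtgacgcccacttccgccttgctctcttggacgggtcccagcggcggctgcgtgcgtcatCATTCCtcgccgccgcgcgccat
Slc25a23, fell, chr17:57059910-57060113, minus strand: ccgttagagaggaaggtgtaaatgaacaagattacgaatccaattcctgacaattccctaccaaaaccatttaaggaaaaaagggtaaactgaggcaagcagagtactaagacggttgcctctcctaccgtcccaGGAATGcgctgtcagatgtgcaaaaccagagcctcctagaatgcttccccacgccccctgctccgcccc

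The Tead letters stand in front of Slc25a24, which rose, and of Slc25a16 and Slc25a23, which fell, and the Gabpa letters stand in front of Slc25a4. The window of Slc25a24 overlaps the gene Gm19391, and that of Slc25a23 belongs to the first of its 2 RefSeq entries. A promoter entry was found for 36 of the 46 members. Over 250 bases upstream on both strands, GGAATG was present in 7 of these 36 members and in 12.6% of all 32851 promoter windows, CCGGAAG in 6 members and 6.91% of windows, and the palindromic motif of the factor Nrf1 in 2 members and 3.74% of windows. A member was counted if any of its entries matched, while the share of windows counts single entries, so these are unlike units. Of the 11 called members with an entry, 3 had GGAATG, 1 had CCGGAAG and 0 had the Nrf1 motif. All these called members with a match are among those shown, so the windows shown are not typical of called members. A match is a description of the letters and not a measured site.

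Among the carriers of adenine nucleotides and phosphate, 2 of 8 members rose, 1 fell and 5 did not pass. The substrate groups given here and below are small, and their counts stand beside 18.8% called over all genes. Slc25a24 exchanges ATP-Mg for phosphate under control of cytosolic calcium. It read 8.69, 8.61, 8.40 and 8.78 on the controls, in the order of replicates 1 to 4 kept below, and 9.32, 9.33, 9.47 and 8.93 on the knockout arrays. Every knockout array lay above every control array, with knockout replicate 4 the closest to them, and the rise was 0.65 (SE 0.116, 1.56-fold, adjusted p = 0.00274 in limma). Its paralogue Slc25a23, which carries out the same exchange, went the other way. Slc25a23 read 10.09, 10.05, 9.89 and 9.84 in control and 9.59, 9.53, 9.42 and 9.29 in knockout arrays. The groups did not overlap and the fall was 0.51 (SE 0.0825, 1.42-fold, adjusted p = 0.00138). The third calcium-regulated form, Slc25a25, read 9.10, 9.02, 9.07 and 9.26 against 8.98, 8.91, 9.003 and 8.83. Its groups did not overlap either, by a narrow margin, but it did not pass (−0.18, SE 0.0684, adjusted p = 0.0943). The calcium-independent Slc25a41 differed by −0.08 (SE 0.0634). It is the neighbour of Slc25a23 among the protein-coding genes of RefSeq and did not pass. The neighbour of Slc25a24, Slc25a54, differed by −0.04 (SE 0.0519) and did not pass. Slc25a54 read only 4.54 to 4.67 on all arrays, and whether it was above background is not known. Its value therefore cannot show whether it moved with Slc25a24.

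The ADP/ATP carriers, which export the ATP made by oxidative phosphorylation, also differed among themselves. Slc25a4, the form typical of heart and skeletal muscle, read 10.001, 10.03, 9.75 and 9.99 in control and 10.36, 10.36, 10.39 and 10.15 in knockout arrays. It rose by 0.37 (SE 0.0813, 1.29-fold, adjusted p = 0.0084 in limma), with no overlap. Slc25a5, the form common in dividing cells, read 12.27, 12.34, 11.98 and 12.28 against 12.14, 12.19, 12.03 and 11.70. Its groups overlapped and it did not pass (−0.20, SE 0.114, adjusted p = 0.282). The 2 other probe sets annotated to Slc25a5 differed by −0.21 and −0.24, and the proteins and transcripts of Slc25a4 and Slc25a5 are close enough that shared signal between their probes was not tested. The germ cell form Slc25a31 stayed between 4.34 and 4.67 on all arrays, low on arrays whose lowest values were 2.89 to 3.00, and whether it was above background is not known. Slc25a3, which brings in the phosphate needed to make ATP, read 11.81 to 11.98 in control arrays and 11.96, 11.94, 11.86 and 11.53 in knockout replicates 1 to 4 (−0.09, SE 0.0938, adjusted p = 0.594).

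**Figure D2:**
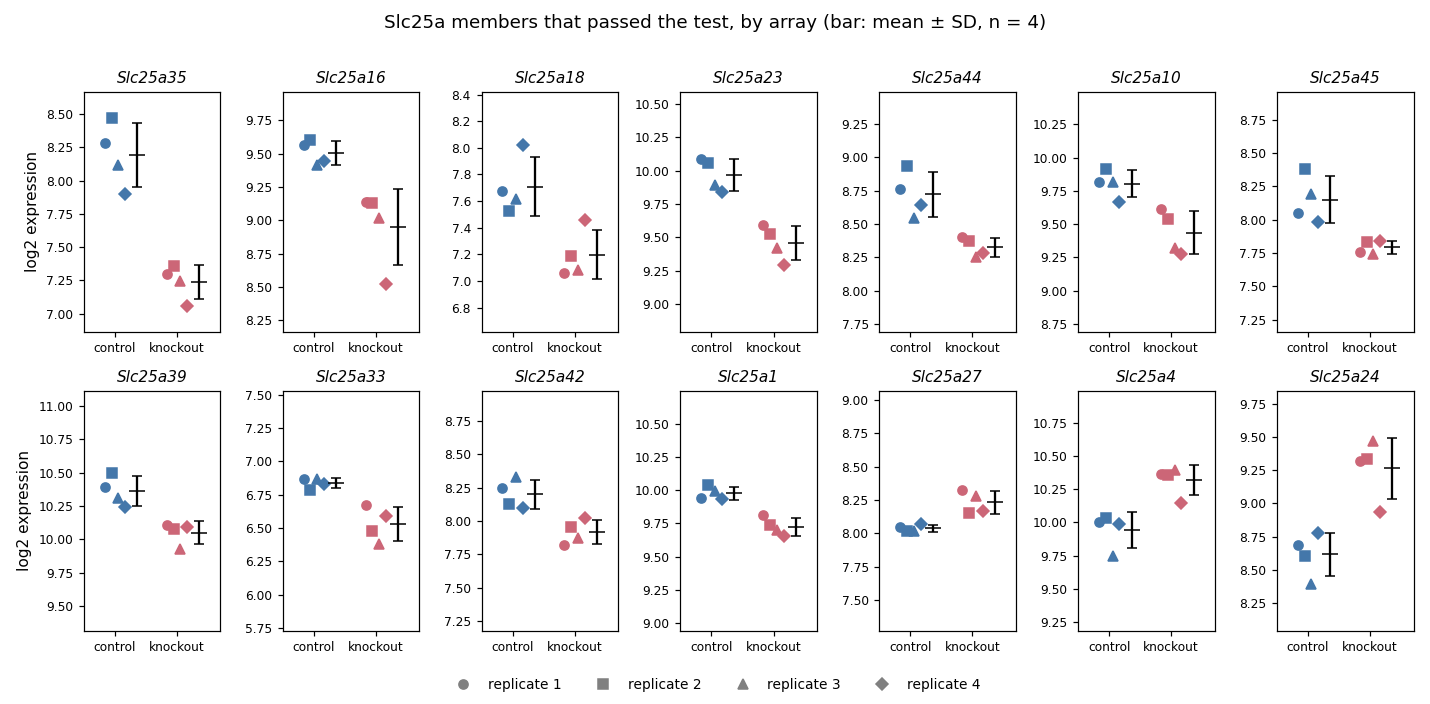
Log2 expression of the 14 Slc25a members that passed the test, in control (blue) and knockout (red) arrays, 1 panel a gene on vertical axes of equal span, with marker shapes for replicates 1 to 4 and bars for mean ± SD (n = 4). In each panel the knockout arrays lie on 1 side of the control arrays, below them in 11 genes and above them in Slc25a27, Slc25a4 and Slc25a24.

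Of 4 carriers of dicarboxylates, oxoglutarate and citrate 2 fell and 2 did not pass. Slc25a1, the citrate carrier whose exported citrate feeds lipid synthesis, read 9.94, 10.04, 9.99 and 9.94 in control and 9.81, 9.74, 9.70 and 9.65 in knockout arrays. The arrays of each group lay close together and apart from the other group, and the fall was 0.25 (SE 0.0575, 1.19-fold, adjusted p = 0.0112 in limma). Slc25a10, which exchanges malate and succinate for phosphate, read 9.82, 9.91, 9.82 and 9.67 against 9.62, 9.54, 9.32 and 9.28. It fell by 0.37 (SE 0.0877, 1.29-fold, adjusted p = 0.0136), with knockout replicate 1 nearest to the controls. Slc25a11, the oxoglutarate-malate carrier of the malate-aspartate shuttle, did not pass (−0.16, SE 0.0973, adjusted p = 0.314). Slc25a21, a carrier of longer oxodicarboxylates, read 4.09 to 4.39 on all arrays and did not pass (0.04, SE 0.0737). With the mesenchymal covariate Slc25a1 differed by −0.19 (adjusted p = 0.124) and Slc25a10 by −0.19 (adjusted p = 0.135).

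Of 9 amino acid carriers 2 fell and 7 did not pass. Slc25a18, a glutamate carrier, read 7.67, 7.52, 7.62 and 8.02 in control and 7.06, 7.19, 7.08 and 7.46 in knockout arrays. Replicate 4 was the highest array of each group, the groups did not overlap, and the fall was 0.51 (SE 0.118, 1.43-fold, adjusted p = 0.0113 in limma). The other glutamate carrier, Slc25a22, read 7.39, 7.36, 7.32 and 7.28 against 7.18, 7.32, 7.29 and 7.38 and did not pass (−0.05, SE 0.0603, adjusted p = 0.669). Slc25a44, which takes up branched-chain amino acids, read 8.77, 8.94, 8.55 and 8.65 against 8.40, 8.37, 8.25 and 8.28. It fell by 0.40 (SE 0.0842, 1.32-fold, adjusted p = 0.00721), and all knockout arrays were below the lowest control array. The aspartate-glutamate carriers of the malate-aspartate shuttle, Slc25a12 (−0.09, SE 0.0634) and Slc25a13 (0.03, SE 0.0774), did not pass.

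Slc25a38, which brings in glycine for haem synthesis, had the largest difference among the members that did not pass. It read 9.27, 9.32, 8.95 and 9.32 in control and 8.99, 8.93, 8.87 and 8.31 in knockout arrays. Control replicate 3 lay among the knockout arrays and knockout replicate 4 far below the rest (−0.44, SE 0.145, adjusted p = 0.0599 in limma). Without control replicate 3 it fell by 0.53 (adjusted p = 0.0417), and without knockout replicate 1 by 0.51 (adjusted p = 0.0453). Without knockout replicate 4 the difference was −0.28 (adjusted p = 0.0568), and with the mesenchymal and erythroid covariates −0.27 each (adjusted p = 0.407 and 0.0649). The ornithine carrier Slc25a15 differed by −0.19 (SE 0.0682, adjusted p = 0.0776) and fell by 0.24 without knockout replicate 4 (adjusted p = 0.0247). Slc25a2, also an ornithine carrier, and Slc25a29, a carrier of basic amino acids, differed by −0.06 (SE 0.0847) and 0.08 (SE 0.0604).

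The carriers of cofactors and glutathione gave 3 falls among 8 members. Slc25a16, linked to coenzyme A transport, read 9.56, 9.60, 9.41 and 9.44 in control and 9.13, 9.13, 9.01 and 8.52 in knockout arrays. Knockout replicate 4 was the lowest by a wide margin, the groups did not overlap, and the fall was 0.56 (SE 0.124, 1.47-fold, adjusted p = 0.00956 in limma). Slc25a42, which imports coenzyme A, read 8.24, 8.13, 8.33 and 8.10 against 7.82, 7.95, 7.87 and 8.02. It fell by 0.28 (SE 0.0717, 1.22-fold, adjusted p = 0.0183), but did not pass when control replicate 1, control replicate 3, knockout replicate 1 or knockout replicate 3 was left out, or knockout replicates 1 and 4 together, with adjusted p from 0.0523 to 0.0576. Slc25a39, which imports glutathione, read 10.39, 10.50, 10.31 and 10.24 against 10.11, 10.08, 9.93 and 10.09. It fell by 0.31 (SE 0.0709, 1.24-fold, adjusted p = 0.0106), again with no overlap.

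Its paralogue Slc25a40 read 8.06, 8.08, 7.97 and 7.999 in control and 8.41, 8.43, 8.29 and 7.92 in knockout arrays. Knockout replicates 1 to 3 were above all controls and knockout replicate 4 below them all, and the gene did not pass (0.24, SE 0.104, adjusted p = 0.155 in limma). Without knockout replicate 4 it rose by 0.35 (adjusted p = 0.00251). The probe set of Slc25a40 that was not used showed the same arrangement, at 7.07, 7.03, 6.94 and 6.93 in control and 7.39, 7.22, 7.21 and 6.87 in knockout arrays. The peroxisomal cofactor carrier Slc25a17 (−0.24, SE 0.114), the folate and FAD carrier Slc25a32 (−0.21, SE 0.09), the NAD carrier Slc25a51 (−0.13, SE 0.0746) and the S-adenosylmethionine carrier Slc25a26 (−0.09, SE 0.0558) did not pass, with adjusted p from 0.147 to 0.331.

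The pyrimidine nucleotide carriers supply the matrix with building blocks for mitochondrial DNA and RNA. Slc25a33 read 6.86, 6.79, 6.87 and 6.83 in control and 6.67, 6.48, 6.38 and 6.59 in knockout arrays, a fall of 0.31 (SE 0.0695, 1.24-fold, adjusted p = 0.0101 in limma) with no overlap. Slc25a36 read 11.16, 11.13, 10.87 and 11.23 against 11.24, 11.26, 11.07 and 10.96. It did not pass (0.04, SE 0.0936, adjusted p = 0.857), nor did its other probe set show more than a difference of 0.08 (SE 0.0655).

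Slc25a20, the carnitine-acylcarnitine carrier that admits fatty acids for oxidation, read 8.90, 9.03, 8.84 and 8.84 in control and 8.98, 8.61, 8.60 and 8.18 in knockout arrays. Knockout replicate 1 lay among the controls and the other knockout arrays below them (−0.30, SE 0.137, adjusted p = 0.166 in limma). Without knockout replicate 1 the fall was 0.43 (adjusted p = 0.0215), and without knockout replicate 4 the difference was −0.17 (adjusted p = 0.273). With the mesenchymal covariate it was −0.0733 (adjusted p = 0.812), and with the erythroid covariate −0.15 (adjusted p = 0.283). The iron carriers mitoferrin 1 (Slc25a37) and mitoferrin 2 (Slc25a28), which bring iron to haem and iron-sulphur cluster synthesis, did not pass. Slc25a37 read 9.21, 9.18, 9.26 and 9.17 against 9.09, 8.97, 9.09 and 9.08, without overlap (−0.14, SE 0.0551, adjusted p = 0.104). Slc25a28 differed by −0.02 (SE 0.0522).

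Among relatives of the uncoupling proteins, Slc25a27 rose slightly. It read 8.05, 8.01, 8.02 and 8.07 in control and 8.33, 8.15, 8.28 and 8.17 in knockout arrays, a rise of 0.19 (SE 0.0589, 1.14-fold, adjusted p = 0.0426 in limma). That call ended in 11 of 17 alternatives, including the replicate block (adjusted p = 0.087), the centring of each array on its median (adjusted p = 0.0725) and the omission of any array other than knockout replicates 2 and 4 (adjusted p from 0.0635 to 0.121). Slc25a14 (0.06, SE 0.0672) and Slc25a30 (0.16, SE 0.0791) did not pass.

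The largest change in the family belonged to Slc25a35, whose substrate is not settled. It read 8.28, 8.47, 8.12 and 7.90 in control and 7.30, 7.36, 7.24 and 7.06 in knockout arrays. The highest knockout array was well under the lowest control array, and the fall was 0.95 (SE 0.114, 1.94-fold, adjusted p = 2.01e-04 in limma). Slc25a34, its closest relative by number and name, read 6.65, 6.49, 6.82 and 6.67 against 6.56, 6.47, 6.49 and 6.68 and did not pass (−0.11, SE 0.0788, adjusted p = 0.427). Slc25a45 read 8.05, 8.38, 8.19 and 7.98 against 7.76, 7.83, 7.74 and 7.84. It fell by 0.36 (SE 0.084, 1.28-fold, adjusted p = 0.0127), with the knockout arrays closer together than the controls, but did not pass without knockout replicates 1 and 4 together (−0.36, adjusted p = 0.0562). The 6 remaining members of unsettled or other role, Slc25a43, Slc25a46, Slc25a47, Slc25a48, Slc25a53 and Slc25a54, had differences from −0.17 to 0.14 and did not pass. Among these Slc25a46 acts in the outer membrane, and its arrays ran from 9.63 to 9.88.

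**Figure D3:**
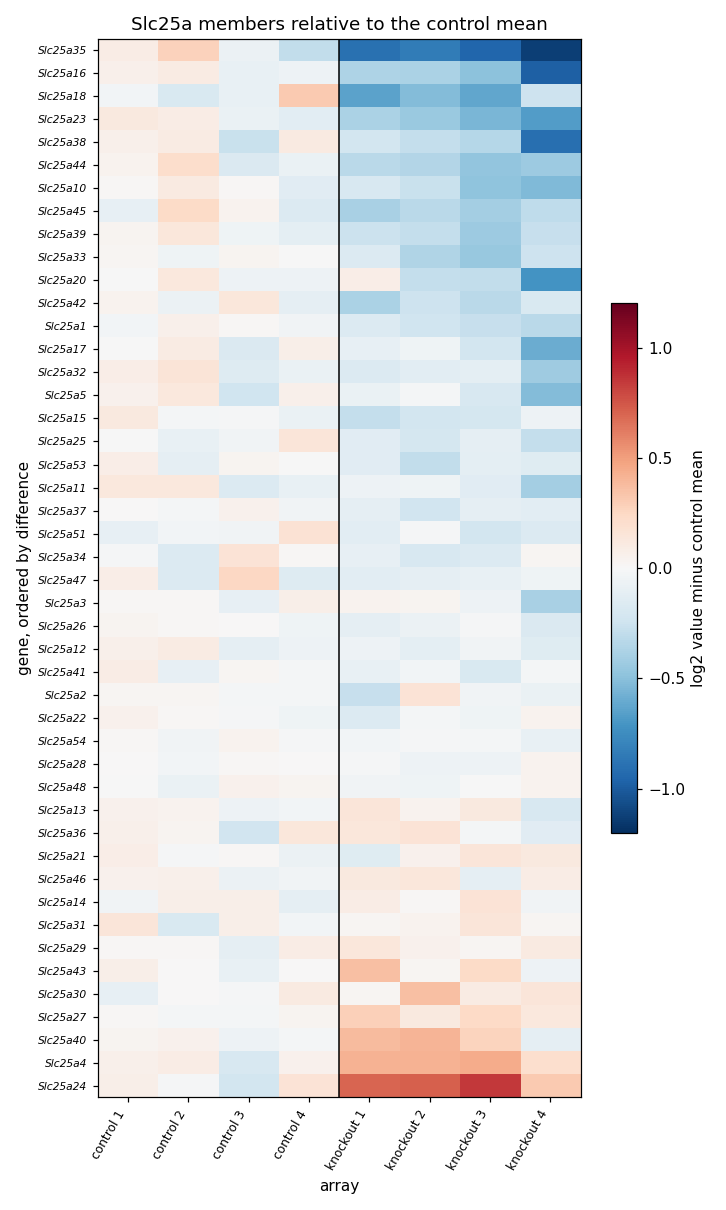
Log2 value of each Slc25a member (rows, ordered by difference) on each of the 8 arrays (columns), minus the mean of the 4 control arrays, with blue below and red above that mean. The column of knockout replicate 4 holds the lowest of the 4 knockout values in 24 of the 46 rows.

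Knockout replicate 4 stood apart from the other knockout arrays in this family. It was the lowest knockout array in 24 of 46 members (52.2%), where over all genes it was the lowest in 30.2% and the highest in 42%. Control replicate 3 was the lowest control array in 18 of 46 members (39.1%), against 24.4% of all genes. Both arrays were the lowest of their groups in 15 members (32.6%, against 15% of all genes), among them Slc25a4, Slc25a5, Slc25a24 and Slc25a38. Without knockout replicate 4, 4 members rose and 12 fell, which is 34.8% called, against 20% of all genes in the same setting. All 14 called members kept their calls, and Slc25a40 and Slc25a15 joined them. Knockout replicate 4 also had the lowest mean of type 2 markers (11.09) and the highest of mesenchymal (8.46) and erythroid markers (6.50), and their part in its low values was not tested.

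Related carriers of the same or like substrate could be compared within each array, which removes what an array shares over its probes. In 12 pairs with both members measured, the log2 ratio of the pair was compared between the groups by an exact permutation test over the 70 assignments of the arrays, two-sided. In 7 pairs every knockout ratio lay on 1 side of every control ratio, which gave exact p = 0.0286, the smallest p that 4 against 4 arrays allow, and an adjusted p of 0.0490 over the 12 pairs. With 12 pairs that adjusted p is under 0.05 only if at least 7 of them reach the smallest p, so it could not be lower for any pair here. The same limit holds with 1 array fewer, so counts of pairs under 0.05 then say nothing about stability, and the range of each difference without 1 array is given instead. The ratios are made from the same values as the single-gene tests and are no separate evidence for them.

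The widest divergence was between the calcium-regulated carriers, where the difference of Slc25a24 exceeded that of Slc25a23 by 1.16 (1.08 to 1.25 without 1 array) and that of Slc25a25 by 0.83 (0.77 to 0.90). Slc25a35 and Slc25a34 differed by 0.85 (0.70 to 0.95), with the more negative difference in Slc25a35. The rise of Slc25a4 stood 0.57 above the difference of Slc25a5, and leaving out any 1 array gave 0.53 to 0.62. Slc25a39 stood 0.55 below Slc25a40 (0.50 to 0.68), Slc25a18 stood 0.46 below Slc25a22 (0.34 to 0.53), and Slc25a37 stood 0.12 below Slc25a28 (0.11 to 0.14). Of the 5 other pairs, Slc25a33 and Slc25a36 came closest to the smallest p (0.34, exact p = 0.0571, adjusted p = 0.0857), followed by Slc25a23 and Slc25a25 (0.33, exact p = 0.0857, adjusted p = 0.114). Slc25a12 and Slc25a13, Slc25a15 and Slc25a2, and Slc25a14 and Slc25a30 were apart by 0.12, 0.13 and 0.10, with exact p from 0.114 to 0.514.

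**Figure D4:**
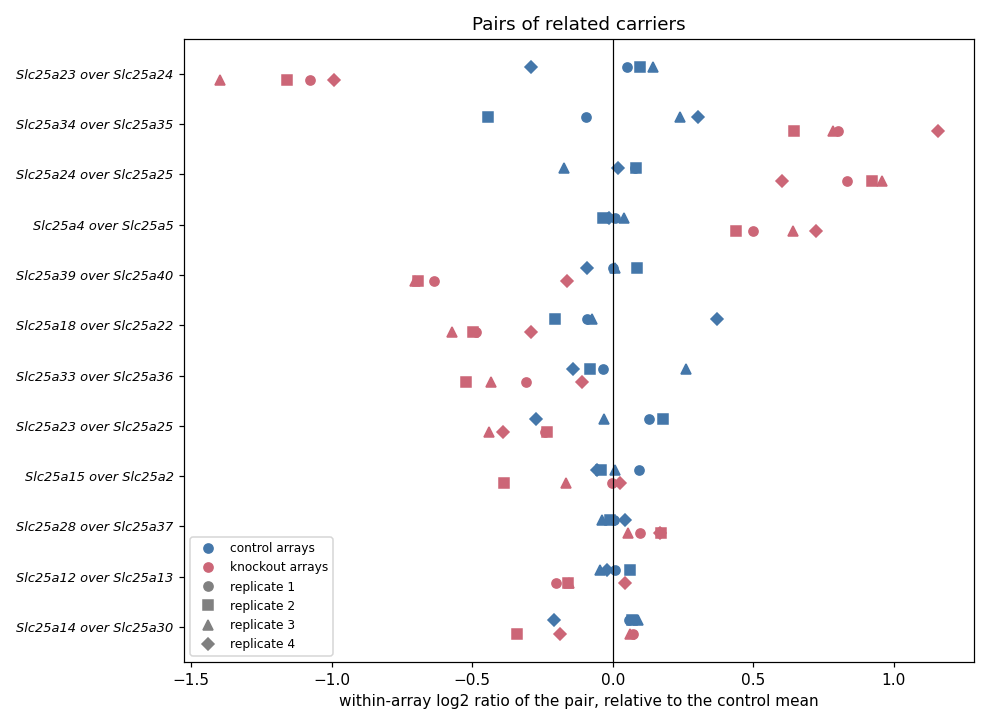
Within-array log2 ratio of each of 12 pairs of related carriers (rows) on the 4 control (blue) and 4 knockout (red) arrays, relative to the mean of the control arrays, with marker shapes for replicates. The red and blue points separate in 7 pairs, by 1.16 on average for Slc25a23 over Slc25a24.

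Other transporters of the mitochondrial membranes gave 2 rises and 5 falls among 19 measured genes (23 listed). That is 36.8% called, against 18.8% of all genes. Mtch1 and Mtch2, outer membrane proteins that descend from the same carrier family under other names, both fell. Mtch1 read 11.70, 11.75, 11.61 and 11.46 in control and 11.15, 11.08, 11.07 and 10.94 in knockout arrays (−0.57, SE 0.076, adjusted p = 4.00e-04 in limma). Mtch2 read 11.22, 11.28, 10.92 and 10.95 against 10.46, 10.37, 10.23 and 9.79 (−0.88, SE 0.141, adjusted p = 0.00131). The groups were apart in both genes, and in Mtch2 knockout replicate 4 was again lowest. Among the sideroflexins, a separate family of mitochondrial transporters, Sfxn2 fell by 0.73 (SE 0.0893) and Sfxn3 rose by 0.53 (SE 0.0924). Sfxn1 (−0.18, adjusted p = 0.278), Sfxn4 (0.06, adjusted p = 0.693) and Sfxn5 (−0.03, adjusted p = 0.767) did not pass.

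The machinery that inserts carriers into the inner membrane gave 2 rises and 1 fall among 12 measured genes. That is 25% called, against 18.8% of all genes, with a median difference of 0.00149. Agk, a lipid kinase and subunit of the TIM22 carrier translocase, fell by 0.47 (SE 0.0817, adjusted p = 0.00219 in limma). Tomm70a, the import receptor that recognises carriers, rose by 0.24 (SE 0.0625), the chaperone Timm10 rose by 0.27 (SE 0.081), and the translocase channel Timm22 did not pass (0.18, SE 0.0635, adjusted p = 0.0724). Of 12 regulators of mitochondrial biogenesis 1 passed, or 8.33%. Ppargc1a, the coactivator PGC-1alpha that drives mitochondrial gene expression, read 9.45, 9.27, 9.42 and 9.57 in control and 8.24, 8.26, 8.02 and 7.80 in knockout arrays. The groups were more than a log2 unit apart, and the fall was 2.55-fold (−1.35, SE 0.105, adjusted p = 1.90e-05). Its DNA-binding partners did not pass, Nrf1 at 0.11 (SE 0.0578), Gabpa at 0.02 (SE 0.0582) and Esrra at −0.03 (SE 0.0656). Tfb1m, a mitochondrial rRNA methyltransferase (−0.44, SE 0.152, adjusted p = 0.0738), and Myc (0.27, SE 0.0983, adjusted p = 0.0874) did not pass either.

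Enzymes that make or use the carriers' substrates gave 2 rises and 10 falls among 35 measured genes (42 listed). That is 34.3% called, against 18.8% of all genes, with a median of −0.08. Beside the citrate carrier, Acly, which splits exported citrate into acetyl-CoA, read 10.90, 11.01, 10.82 and 10.78 in control and 10.26, 10.22, 10.19 and 10.02 in knockout arrays (−0.71, SE 0.0743, adjusted p = 9.18e-05 in limma). Citrate synthase, Cs, did not pass (−0.0025, SE 0.0656). Beside the glutathione carriers, Gclc, the catalytic subunit of the enzyme that limits glutathione synthesis, read 11.27, 11.36, 11.30 and 11.44 against 10.25, 10.21, 9.98 and 9.94. It fell 2.38-fold (−1.25, SE 0.0826, adjusted p = 9.71e-06), while its partner Gclm (−0.05, SE 0.0521) and the synthetase Gss (0.000973, SE 0.0875) did not pass.

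Beside the ornithine and glutamate carriers, ornithine aminotransferase Oat fell by 1.01 (SE 0.0965) and mitochondrial arginase Arg2 by 1.48 (SE 0.184), and glutamate dehydrogenase Glud1 did not pass (0.35, SE 0.114, adjusted p = 0.0539 in limma). Got1 (−0.13), Got2 (0.05), Mdh1 (−0.09) and Mdh2 (−0.11), which use glutamate or malate, did not pass either (adjusted p from 0.261 to 0.756 in limma). The glycerol phosphate shuttle, which moves reducing equivalents without a carrier, had its cytosolic enzyme Gpd1 lower by 1.04 (fold 2.06, SE 0.11) and its mitochondrial enzyme Gpd2 higher by 0.62 (fold 1.54, SE 0.0941). For coenzyme A, the kinase Pank1 fell by 0.43 (SE 0.102), but Pank2 (−0.15), Pank3 (0.03) and Coasy (−0.08) did not pass. For carnitine, Cpt1a fell by 0.30 (SE 0.0641) and Crat by 0.35 (SE 0.0701), but Cpt2 (−0.03) did not pass. Adjusted p of these called enzymes ran from 5.40e-05 (Oat) to 0.0129 (Pank1).

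**Figure D5:**
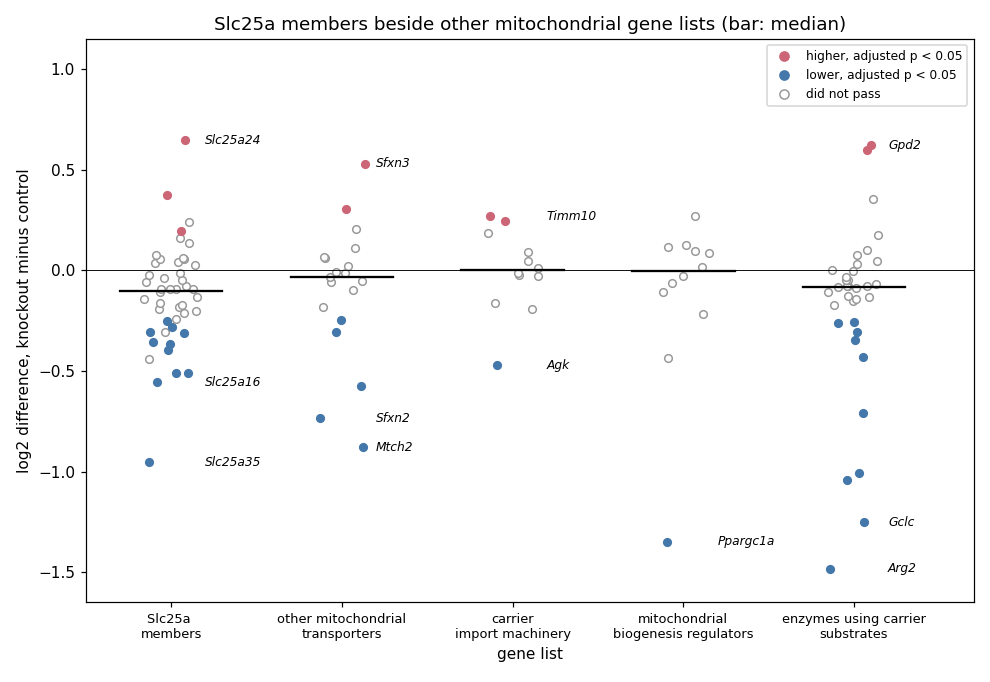
Log2 difference, knockout minus control, of the 46 Slc25a members and of 4 other gene lists (columns), with bars at the medians. The list of enzymes includes cytosolic ones. Each point is a gene, red for risen, blue for fallen and open grey for not passed. The medians lie between −0.10 and 0.00149, and the lowest point is Slc25a35 among the carriers, Mtch2 among the other transporters, Agk in the import machinery, Ppargc1a among the regulators and Arg2 among the enzymes.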

How the data were processed

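Expression was measured in 8 samples, 1 array each, as 4 control and 4 knockout samples grouped by their labels. The authors deposited 1 table of 35556 probe sets in log2 units. The scale was read from the range of the values, and for their background correction, summarisation and normalization no method is named by the labels. Gene symbols came from the platform annotation: 21789 probe sets had 1 symbol, 1621 several and 12146 none given. The arrays carry no background calls here, so whether genes of low level were detected is not known. Precision is limited by the number of arrays.

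The values were taken as deposited and fitted with limma 3.58.1 (lmFit and eBayes, R 4.3.3) over 19938 genes, knockout minus control, with no covariate, two-sided. Benjamini-Hochberg adjusted p-values were held to a threshold of 0.05, and the steps were tested on simulated data. All 46 members matched RefSeq by gene number. Of 54 family numbers listed, 8 have no value here, among them genes that carry other symbols. Same-numbered control and knockout arrays did not deviate together (correlations 0.06, 0.10, −0.08 and 0.04), so numbers were not taken as pairs.

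The family was picked, and its roles, pairs, gene lists and motifs were chosen, with earlier results of these data known, although the rule for members uses no difference between the groups. Values per array are given for members that passed and for both members of a pair where at least 1 passed. Of each further list the 4 genes with the smallest p are named, with some but not all enzymes of the same substrates. Slc25a3, Slc25a20, Slc25a37, Slc25a38, Sfxn1, Sfxn4, Sfxn5, Gabpa and Esrra were singled out after their values were seen. Alternatives were median centring, quantile normalization, a level filter, means over probe sets, a trended robust prior, the replicate block, omission of arrays, and marker means as covariates.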

Additional observations from a re-analysis of the deposited data

Results flagged for a closer look

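In 92 groups of 4 arrays, 46 members in each of both conditions, 1 array stood apart from the other 3 by Dixon's test in 8 groups. With normal spread and independent groups about 1 in 20 would be flagged. These groups share their arrays, and the share flagged over all genes was not computed, so no excess can be read from the count. Slc25a4 was flagged in both conditions: control replicate 3 read 9.75 where the other controls read 9.99 to 10.03, and knockout replicate 4 read 10.15 where the others read 10.36 to 10.39. Control replicate 3 also stood below the other controls in Slc25a38, at 8.95 against 9.27 to 9.32. Knockout replicate 4 stood below in Slc25a32, at 7.76 against 8.02 to 8.07. Knockout replicate 2 was the low array in Slc25a37, at 8.97 against 9.08 to 9.09, and in Slc25a53, at 5.50 against 5.65 to 5.68. Knockout replicate 3 read 9.93 in Slc25a39, below 10.08 to 10.11, and 4.67 in Slc25a31, above 4.55 to 4.56.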

How the results depend on the processing

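The calls of Slc25a4, Slc25a24, Slc25a18, Slc25a23 and Slc25a35 held in each alternative that tested them. With the mesenchymal covariate the members that fell dropped from 11 to 3, and all genes gave 985 rises and 1207 falls (13% of members called, against 11% of all genes). The cause was not tested. Leaving out 1 array at a time gave 2 to 4 members risen and 10 to 12 fallen, with 1240 to 1820 genes risen and 1526 to 2158 fallen. It gave 0 to 9 unequal pairs against 7 with all arrays: 9 without knockout replicate 4 and 0 without any other array. Such a count passes only where at least 7 of the 12 pairs reach the smallest p, so it bears on that limit and not on the differences. With the replicate block 2 members rose and 11 fell (28.3% called, against 17.5% of all genes), and only the call of Slc25a27 ended. Members whose difference changed sign were uncalled throughout. Without 1 array the difference ran from −0.138 to 0.00598 in Slc25a3, from −0.00208 to 0.107 in Slc25a31, from −0.135 to 0.0130 in Slc25a2, from −0.00954 to 0.101 in Slc25a13, from −0.0409 to 0.0926 in Slc25a36 and from −0.0422 to 0.00393 in Slc25a48. With the mesenchymal covariate Slc25a3 read 0.0213 and Slc25a21 −0.0110, and with the erythroid covariate 0.0112 and −0.0103. Slc25a2 read 0.0606 without knockout replicates 1 and 4 together.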
